A study of Mus musculus with 14 samples.

Results

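The Wnt ligands, receptors, antagonists and targets described here are the 55 genes, of 18193 with a single gene symbol on the array, whose symbols match a fixed list of Wnt family names. The list takes the Wnt, Frizzled (Fzd), secreted Frizzled-related (Sfrp), Dickkopf (Dkk), R-spondin (Rspo) and Naked cuticle (Nkd) families, Lrp4 to Lrp6, Lgr4 to Lgr6, and Wif1, Axin2, Lef1, Notum and Frzb. Tcf7 is also in the list and was not analysed here, because no probe set carried it as its only symbol. The 55 genes were measured by 107 probe sets, and each gene is represented by the probe set with the highest mean over 14 arrays. Of the 55 genes, 42 lay above a filter that left out the dimmest 0.333 of probe sets by mean level, and these 42 of 13453 genes were tested.

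RNA came from stromal cells released from the bone marrow of C57BL/6J mice that carried pOBcol2.3-GFP, a transgene in which a piece of a type I collagen promoter drives GFP in osteoblasts. The mice were 6 to 8 weeks old and wild type by their labels. Osteoblasts were sorted as GFP+ cells without CD45, ter119 or CD31, and endothelial cells as CD31+ cells without CD45, ter119 or GFP. Mice were untreated, which the protocol text gives as vehicle alone, or received 250 ug per kg of G-CSF under the skin, the cytokine that drives neutrophil production and mobilises blood stem cells. The GFP+ sort gave 3 untreated and 3 G-CSF arrays and the CD31+ sort 4 and 4, with 1 Affymetrix array per sample. Treatment lasted 5 days by the titles, while 7 days stand in the protocol of untreated samples. All animals were reporter mice of the same strain. Nothing states whether replicates came from different mice, so p-values measure only the spread between these samples.

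Wnt proteins are secreted, lipid-bearing signals that bind a Frizzled receptor together with the co-receptors Lrp5 or Lrp6. Binding stabilises beta-catenin, which then acts with TCF and LEF factors on target genes, while other Wnts signal through Ror2 and planar polarity proteins without beta-catenin. R-spondins bind Lgr4, Lgr5 and Lgr6 and keep Frizzled receptors on the cell surface. Sfrp proteins, Frzb and Wif1 bind Wnts outside the cell, Dickkopf proteins act on the Lrp co-receptors, and Notum removes the lipid. In bone the pathway is known for raising osteoblast number and bone mass, and in vessels Fzd4 is known as the receptor for norrin.

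Levels are given as log2 of intensity plus 16, so that 4 is the lowest level possible and a difference of 1 is a doubling above that offset, which understates the change of dim genes. Levels of different genes cannot be set against each other, because each probe set has its own response. A mean is followed by its SD and a difference by its SE. A gene was called when its adjusted p was under 0.05 in a 2-sided limma test over all 13453 genes.

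The 13 genes below the filter were not tested. They were the ligands Wnt1, Wnt2, Wnt2b, Wnt3, Wnt3a, Wnt8a, Wnt8b, Wnt9b and Wnt10b, the R-spondins Rspo1 and Rspo4, the co-receptor Lrp5 and the inhibitor Dkk4, with levels from 4.06 to 7.63 over all arrays. The brightest of them, Wnt8b, had a mean of 5.74, and the dimmest gene tested, Wnt10a, a mean of 5.98. All 10 Frizzled receptors, all 3 Lgr receptors and 10 of 11 secreted inhibitors lay above the filter, against 10 of 19 ligands, 2 of 4 R-spondins and 2 of 3 Lrp genes. The tested set also holds 4 intracellular genes (Axin2, Lef1, Nkd1 and Nkd2) and Fzd10os, a transcript antisense to Fzd10 that the symbol rule takes in and that encodes no receptor.

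RefSeq promoter windows of GRCm38.p6, from 250 bases before to 50 bases after a gene's start, were matched by Entrez identifier. They were found for 35 of the 55 genes and gave 41 windows. The windows below are shown because Fzd4 and Fzd1 differed between the sorts in opposite directions, Wnt16 lay near the lowest level possible in CD31+ arrays only, and Wnt5b is a ligand with a match to a TCF/LEF motif. Capitals mark that match, and lower case is the rest of each window, 5′ to 3′ on the strand of the gene.
Fzd4: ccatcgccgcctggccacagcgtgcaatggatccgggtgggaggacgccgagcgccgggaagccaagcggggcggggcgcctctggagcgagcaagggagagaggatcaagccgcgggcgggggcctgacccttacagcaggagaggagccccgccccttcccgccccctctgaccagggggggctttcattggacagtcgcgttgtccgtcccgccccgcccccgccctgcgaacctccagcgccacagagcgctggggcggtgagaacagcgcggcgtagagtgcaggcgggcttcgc
Fzd1: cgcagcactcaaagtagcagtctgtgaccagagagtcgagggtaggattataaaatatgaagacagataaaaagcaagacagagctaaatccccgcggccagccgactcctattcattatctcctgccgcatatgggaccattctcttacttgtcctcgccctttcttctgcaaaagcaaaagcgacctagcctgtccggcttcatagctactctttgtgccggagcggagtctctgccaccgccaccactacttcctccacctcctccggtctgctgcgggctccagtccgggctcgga
Wnt16: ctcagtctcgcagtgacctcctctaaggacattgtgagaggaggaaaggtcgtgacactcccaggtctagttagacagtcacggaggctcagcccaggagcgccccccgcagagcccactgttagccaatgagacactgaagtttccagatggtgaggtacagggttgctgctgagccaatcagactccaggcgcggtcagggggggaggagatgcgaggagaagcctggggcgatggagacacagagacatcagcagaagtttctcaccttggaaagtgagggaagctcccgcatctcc
Wnt5b: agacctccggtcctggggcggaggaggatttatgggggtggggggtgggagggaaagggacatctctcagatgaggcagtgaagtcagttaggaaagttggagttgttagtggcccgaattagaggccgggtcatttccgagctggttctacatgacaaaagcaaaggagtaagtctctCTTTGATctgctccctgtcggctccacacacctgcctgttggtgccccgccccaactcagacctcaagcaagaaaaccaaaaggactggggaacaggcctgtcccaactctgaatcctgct
They lie at chr7:89404116-89404415 (Fzd4, plus strand), chr5:4758167-4758466 (Fzd1, minus strand), chr6:22287977-22288276 (Wnt16, plus strand) and chr6:119449337-119449636 (Wnt5b, minus strand, 1 of 3 windows of that gene). The Fzd4 window held 32 CpG dinucleotides with a GC content of 72.7%. Fzd1 had 16 and 54%, Wnt16 had 10 and 58%, and Wnt5b had 7 and 55%. Over all 32851 promoters of the same length the median was 7 CpG dinucleotides, with quartiles at 3 and 20, so the Fzd4 window lay above the upper quartile.

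A set of 5 motifs was searched on both strands of every window. The TCF/LEF motif CTTTGAT stood in 2 of the 41 windows, those of Wnt5b and Wnt11, against 3.73% of all promoters, and its form CTTTGAA in 1, that of Dkk1, against 5.14%. The RUNX motif TGTGGT was in 2 windows against 16.8% of all promoters, the STAT motif TTCNNNGAA in 2 against 8.3%, and the ETS motif CCGGAA in 2 against 14.9%. The STAT matches stood in the Frzb window and in another Wnt5b window, which is not shown. None of the 5 motifs was found in the windows of Fzd4, Fzd1 or Wnt16. These are matches of letters in short windows, and with 41 windows the counts are small.

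The deposited intensities had been scaled alike, with a mean of 500 on every array once the lowest and highest 2% were set aside, and array medians from 6.56 to 7.13. Markers set the sorts apart and also showed mixture. All 13 endothelial markers were lower in the GFP+ sort, where their mean level per array ran from 8.62 to 9.60, against 12.48 to 13.08 in the CD31+ sort. The 9 osteoblast markers that could be tested, of 13 listed, averaged 12.87 to 14.52 in the GFP+ arrays and 8.92 to 12.72 in the CD31+ arrays, and only 3 of the 9 were called higher in untreated GFP+ cells. The CD31+ arrays therefore carried osteoblast transcripts at a level that differed between arrays. Untreated GFP+ replicate 2 had the highest neutrophil marker mean of its group (14.15, the others 11.38 and 11.15). Untreated CD31+ replicate 1 had the highest skeletal muscle mean of its group (11.70, the others 7.86 to 9.16). Muscle means were higher in all CD31+ arrays (7.05 to 11.70) than in all GFP+ arrays (5.51 to 6.76). Of 11 muscle markers, 9 were called lower in untreated GFP+ cells and 6 after G-CSF. Of 7 pericyte and smooth muscle markers, 3 were called lower and 1 higher untreated, and 1 and 2 after G-CSF. Markers of fibroblasts, tendon and periosteum were higher in the GFP+ sort, with 5 of 8 called untreated and 8 of 8 after G-CSF. Their group means were 12.57 in GFP+ and 9.52 in CD31+ arrays untreated, and 12.83 and 7.95 after G-CSF. After G-CSF all 9 osteoblast markers were called higher too. The part of fibroblast-like cells in the differences between the sorts was not tested. In sorted bulk RNA, fewer cells of a type and less RNA per cell cannot be told apart.

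The sorts were compared first without treatment, to see where in the pathway the GFP+ and CD31+ sorts differ. All ligands, R-spondins and secreted inhibitors that were called were higher in the GFP+ sort, and 2 receptors, Fzd4 and Fzd6, were higher in the CD31+ sort. Of the 42 genes, 17 were called higher in GFP+ cells, where 13.6% of all genes were, and 2 lower, where 12.8% were. Together 19 of 42 (45.2%) were called against 26.4% of all genes. The groups did not overlap for 22 of the 42, against 32.6% of all genes. The median difference of the 42 genes was 0.70 and that of all genes 0. With each array centred on its median, all genes shifted to a median of -0.23 and the calls over all genes split into 1239 higher and 2565 lower instead of 1831 and 1722, and 17 of the 42 genes were then called.

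Among ligands, 3 of 10 were called, all higher in the GFP+ sort. Wnt16 (Entrez 93735), a ligand of cortical bone that limits osteoclast formation, read 9.27, 9.72 and 9.27 in untreated GFP+ arrays. Its levels in untreated CD31+ arrays were 4.19, 4.64, 4.68 and 5.86, near the lowest level possible. All GFP+ arrays lay above all CD31+ arrays (adjusted p = 2.62e-06). The intensities in CD31+ arrays were 2.2, 9, 9.7 and 41.9, mostly under the offset of 16, and the gene passed the filter through its GFP+ levels. The fitted difference of 4.58 therefore depends on the offset and ran from 3.23 to 5.93 over the alternatives, so no fold is given. Wnt5a (Entrez 22418), the best known ligand of Ror2, read 9.63, 9.31 and 9.85 against 6.47, 5.79, 7.21 and 6.83. It was 3.02 ± 0.36 higher (8.12-fold, adjusted p = 1.93e-05), with all GFP+ arrays above all CD31+ arrays. For Wnt5b, a close relative of Wnt5a, the GFP+ levels were 10.06, 10.61 and 11.03 and the CD31+ levels 8.31, 7.89, 8.55 and 9.12. Again the groups were apart, by 2.10 ± 0.42 (4.28-fold, adjusted p = 0.00166).

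Wnt4, a ligand with roles in kidney, gonad and bone, read 11.33, 10.77 and 11.33 in untreated GFP+ arrays and 10.14, 8.48, 10.08 and 9.30 in CD31+ arrays. Its groups did not overlap either, but the difference of 1.65 ± 0.77 was not called (adjusted p = 0.134). The differences of the other 6 tested ligands (Wnt6, Wnt7a, Wnt7b, Wnt9a, Wnt10a and Wnt11) lay between -0.21 and 0.71 and were not called. Wnt6 was the closest to 0, at 6.79 ± 0.26 in 3 GFP+ and 6.80 ± 0.25 in 4 CD31+ arrays, with a 95% interval of the difference from -0.59 to 0.58.

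**Figure D1:**
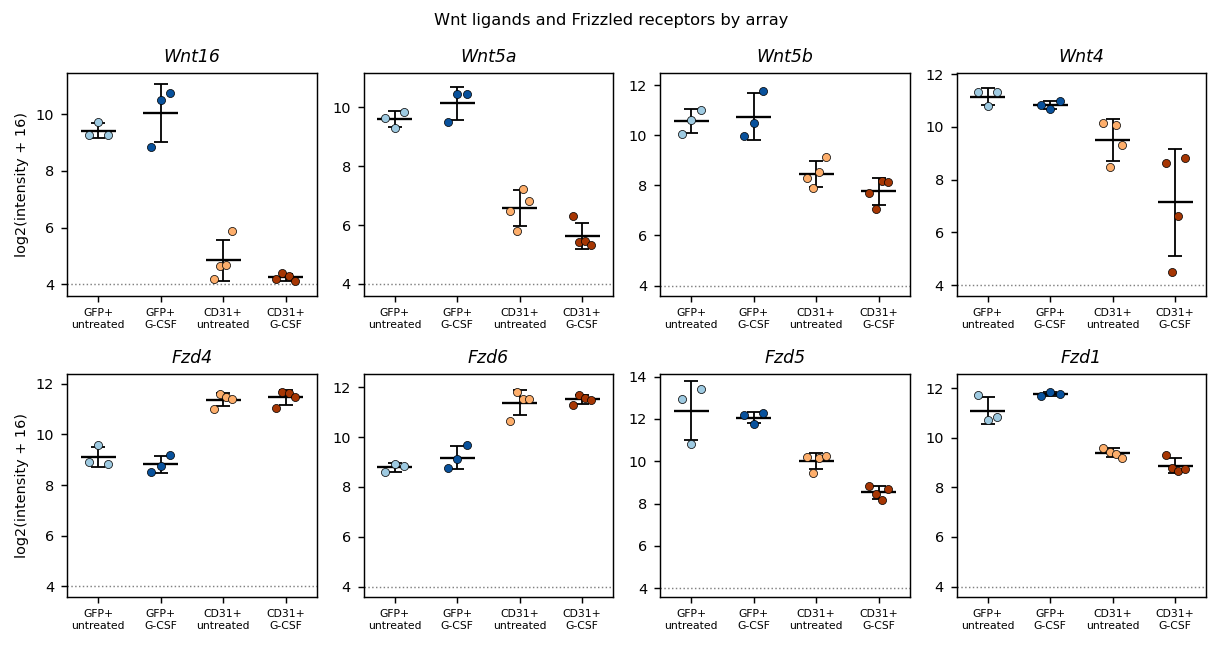
Levels of 4 Wnt ligands and 4 Frizzled receptors, as log2 of intensity plus 16, in each array of the 4 groups. Points are arrays, bars are the group mean ± SD, and the dotted line at 4 is the lowest level possible. Wnt16 in the CD31+ arrays sits close to that line, Fzd4 and Fzd6 are higher in the CD31+ arrays, and Wnt4 spreads from 4.49 to 8.81 in CD31+ arrays after G-CSF.

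Both tested R-spondins were higher in the GFP+ sort. Rspo3 (Entrez 72780), an R-spondin known for its part in vessel development, read 10.37, 9.53 and 10.82 in untreated GFP+ arrays. In CD31+ arrays it read 7.10, 6.96, 7.22 and 7.72, and the groups were apart by 2.99 ± 0.32 (7.94-fold, adjusted p = 7.48e-06). Rspo2 (Entrez 239405), which is known for limb and lung development, read 11.04, 9.59 and 10.98 in the GFP+ arrays. Its CD31+ levels were 8.80, 8.39, 8.37 and 8.42, all below the lowest GFP+ array, that of replicate 2. The difference was 2.04 ± 0.31 (4.12-fold, adjusted p = 0.000217). A second, dim Rspo2 probe set with a mean of 6.00 pointed the other way without being called, at -0.74 ± 0.46 (adjusted p = 0.269), and with the mean of both probe sets the difference was 0.65 (adjusted p = 0.16).

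Of the R-spondin receptors, Lgr6 was called. Its levels were 7.73, 6.56 and 7.60 in GFP+ and 6.20, 5.67, 6.03 and 5.99 in CD31+ arrays. This put every GFP+ array above every CD31+ array, by 1.33 ± 0.34 on average (2.51-fold, adjusted p = 0.00961). Without untreated GFP+ replicate 1 its adjusted p was 0.0579. Lgr4, the most widely expressed receptor of the group, differed by 0.99 ± 0.49 (adjusted p = 0.155) and Lgr5, a marker of intestinal stem cells, by 0.69 ± 0.39 (adjusted p = 0.216), with overlapping groups in both cases.

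Frizzled receptors divided by sort: 3 of 10 were called higher in GFP+ cells and 2 lower. Fzd6 (Entrez 14368), a receptor of planar polarity in hair and skin, read 8.59, 8.90 and 8.85 in GFP+ arrays and 10.66, 11.82, 11.51 and 11.54 in CD31+ arrays. It was 6.08-fold lower in GFP+ cells (-2.60 ± 0.27, adjusted p = 5.24e-06), and the groups were far apart. Fzd4 (Entrez 14366), the norrin receptor, read 8.92, 9.57 and 8.82 against 11.01, 11.59, 11.47 and 11.40. It was 4.79-fold lower in GFP+ cells (-2.26 ± 0.24, adjusted p = 7.35e-06), again with no overlap. With the mean of probe sets the differences were smaller, -1.55 for Fzd6 (adjusted p = 0.000242) and -1.76 for Fzd4 (adjusted p = 2.78e-05). These were the only 2 of the 42 genes called lower in the GFP+ sort, also when any 1 of the 7 arrays was left out. Without the filter on dim probe sets, Wnt8a (-0.92, adjusted p = 0.0368) and Wnt9b (-1.40, adjusted p = 0.00326) were called lower too.

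In the other direction, Fzd1 (Entrez 14362), a receptor of both branches of the pathway, read 11.71, 10.73 and 10.84 in GFP+ and 9.60, 9.43, 9.36 and 9.18 in CD31+ arrays. The groups were apart by 1.70 ± 0.24 (3.24-fold, adjusted p = 8.39e-05). Fzd5 had GFP+ levels of 12.93, 10.80 and 13.42 and CD31+ levels of 10.20, 9.46, 10.16 and 10.26. Replicate 2 was low in both sorts, and the difference was 2.36 ± 0.45 (5.15-fold, adjusted p = 0.00123). Fzd2 read 8.51, 8.44 and 9.42 against 6.70, 7.28, 7.02 and 6.93. Its groups did not overlap and differed by 1.81 ± 0.45 (3.51-fold, adjusted p = 0.00835), with an adjusted p of 0.0518 once untreated GFP+ replicate 3 was left out. Differences of the remaining 5 receptors (Fzd3, Fzd7, Fzd8, Fzd9 and Fzd10) ran from 0.13 to 0.84 and were not called.

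Lrp4, which binds sclerostin and agrin, read 11.12, 9.73 and 11.56 in GFP+ and 8.42, 7.57, 8.94 and 9.42 in CD31+ arrays. The lowest GFP+ array stood above the highest CD31+ array, and the difference was 2.22 ± 0.45 (4.64-fold, adjusted p = 0.00183). Lrp6, the co-receptor needed for beta-catenin signalling, differed by 0.44 ± 0.23 and was not called (adjusted p = 0.184).

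Secreted inhibitors were the role with the most calls: 6 of 10 were higher in GFP+ cells and 0 lower. Dkk3, a Dickkopf relative that is not a typical Lrp antagonist, read 10.75, 11.60 and 11.82 in GFP+ arrays and 8.74, 7.20, 8.61 and 9.36 in CD31+ arrays. The groups were apart by 2.91 ± 0.55 (7.52-fold, adjusted p = 0.00112). Wif1, Wnt inhibitory factor, read 14.32, 14.01 and 14.84 against 11.70, 10.92, 12.45 and 12.27. Its groups did not overlap, but its spread was wide. The difference of 2.55 ± 0.78 had an adjusted p of 0.0243, was called in 4 of 7 fits with 1 array left out, and had an adjusted p up to 0.0888, without untreated GFP+ replicate 3. Sfrp4, whose loss thins cortical bone, read 12.88, 10.61 and 11.84 against 10.10, 9.33, 9.53 and 9.14, and differed by 2.25 ± 0.40 (4.77-fold, adjusted p = 0.000666).

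Sfrp1 had GFP+ levels of 10.40, 9.43 and 9.61 and CD31+ levels of 7.88, 7.64, 8.16 and 8.44, without overlap. The difference was 1.78 ± 0.27 (3.45-fold, adjusted p = 0.000207). Sfrp2 read 8.54, 7.94 and 9.89 against 6.05, 6.06, 7.26 and 7.42 and differed by 2.09 ± 0.56 (4.27-fold, adjusted p = 0.0116). Dkk2, a regulator of Lrp co-receptors that is also needed for mineralisation, read 6.65, 7.17 and 6.98 against 6.13, 5.89, 5.72 and 4.31. It differed by 1.42 ± 0.45 (adjusted p = 0.0307). Its CD31+ mean of 5.51 lay under the filter level of 5.78, so the gene passed the filter through its GFP+ levels. The difference ran from 0.82 to 2.05 over the alternatives, so no fold is given. With 1 array left out, Sfrp2 was called in 6 of 7 fits (adjusted p = 0.0758 without untreated GFP+ replicate 3). Dkk2 was called in 3 of 7, with adjusted p up to 0.0837, without untreated CD31+ replicate 4. Dkk1, Frzb, Notum and Sfrp5 differed by -0.36, 0.06, 0.46 and -1.04 and were not called.

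Of the genes that rise when beta-catenin signals, Axin2 (Entrez 12006), a scaffold of the destruction complex and feedback inhibitor, was called. It read 8.43, 8.89 and 8.81 in GFP+ and 7.96, 7.44, 8.15 and 7.08 in CD31+ arrays. The groups were narrowly apart, by 1.05 ± 0.34 (2.08-fold, adjusted p = 0.0322), but the call held in only 3 of 7 fits with 1 array left out (adjusted p up to 0.0962, without untreated CD31+ replicate 4). With arrays centred on their medians the adjusted p was 0.101. Lef1, a partner of beta-catenin on DNA, differed by 0.49 ± 0.36. Nkd1 and Nkd2, which bind Dishevelled, differed by 0.44 ± 0.30 and 0.49 ± 0.52. None of these 3 was called (adjusted p from 0.323 to 0.541), and all had overlapping groups.

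**Figure D2:**
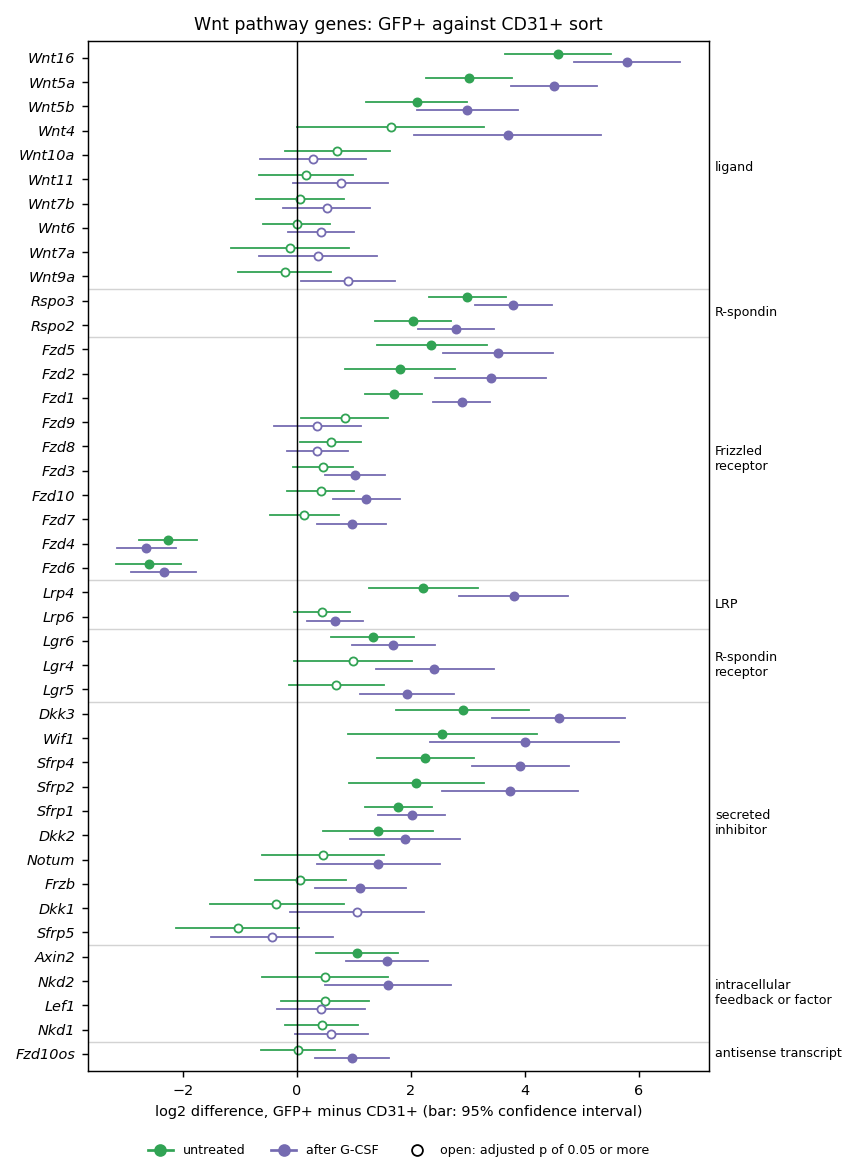
Difference between the GFP+ and CD31+ sorts for the 42 tested genes, grouped by role, on the log2 scale, without treatment (green) and after G-CSF (purple). Points are differences of group means (3 GFP+ and 4 CD31+ arrays each), bars are 95% confidence intervals, and filled points are called. Fzd4 and Fzd6 are the only filled points left of 0, and 19 points are filled without treatment and 30 after G-CSF.

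After G-CSF the same comparison on 7 other arrays called 30 of 42 genes (71.4%), against 31.9% of all genes. In GFP+ cells 28 were higher, where 17.5% of all genes were, and the same 2 receptors were lower, where 14.4% were. All 19 genes called without treatment were called again. The sign was shared by 38 of 42 genes, and across genes the differences correlated with r = 0.952 and rho = 0.862, where all genes gave r = 0.89; genes are not independent replicates. The groups did not overlap for 30 genes against 39.4% of all genes, 28 of them higher in GFP+ cells (21.4%) and 2 lower (18%). The median difference was 1.51 against 0.02 for all genes. Centring arrays on their medians shifted all genes to -0.36, split their calls into 1454 higher and 3964 lower instead of 2351 and 1936, and left 23 of the 42 genes called.

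Wnt16 was again near the lowest level possible in CD31+ cells. It read 8.85, 10.51 and 10.74 in GFP+ arrays after G-CSF and 4.17, 4.38, 4.28 and 4.13 in CD31+ arrays. All GFP+ arrays lay above all CD31+ arrays (adjusted p = 2.03e-07), whose intensities were 1.5 to 4.8. The fitted difference of 5.80 ran from 4.05 to 8.11 over the alternatives, and with an offset of 64 it was smaller than that of Dkk3 (4.20). Wnt5a read 9.49, 10.46 and 10.45 against 6.29, 5.43, 5.46 and 5.33, a difference of 4.51 ± 0.36 (adjusted p = 3.11e-07). Its CD31+ mean after G-CSF, 5.63, lay under the filter level of 5.78. The difference ran from 2.81 to 5.04 over the alternatives, so no fold is given for it. Wnt5b read 9.96, 10.50 and 11.78 against 7.68, 7.04, 8.19 and 8.12 and was 2.99 ± 0.42 higher in GFP+ cells (adjusted p = 6.41e-05).

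Wnt4 was called only after G-CSF. Its GFP+ levels of 10.82, 10.69 and 10.99 were tight, and its CD31+ levels of 8.63, 4.49, 6.62 and 8.81 were the most scattered of the ligands. The difference was 3.70 ± 0.77 (13.0-fold, adjusted p = 0.0018). Whether this gap was wider than without treatment was tested as the difference between the G-CSF changes, 2.05 ± 1.08, which was not called (adjusted p = 1). The same holds for the other 10 genes called only after G-CSF (Fzd3, Fzd7, Fzd10, Fzd10os, Frzb, Lgr4, Lgr5, Lrp6, Nkd2 and Notum): their differences between the changes lay between 0.22 and 1.42 with unadjusted p from 0.0409 to 0.504 and adjusted p of 1.

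The R-spondins stayed apart. Rspo3 read 8.98, 9.86 and 10.04 in GFP+ and 5.95, 5.77, 5.76 and 5.83 in CD31+ arrays, 13.9-fold apart (3.80 ± 0.32, adjusted p = 5.18e-07). Its CD31+ mean of 5.83 was close to the filter level of 5.78, so the fold depends on the offset. The Rspo3 difference ran from 2.29 to 4.22 over the alternatives. For Rspo2 the levels were 8.70, 8.99 and 9.20 against 6.07, 5.84, 6.56 and 6.23, 6.91-fold apart (2.79 ± 0.31, adjusted p = 8.73e-06). The Rspo2 difference ran from 1.87 to 3.09 over the alternatives. All 3 Lgr receptors were called higher in GFP+ cells. Lgr4 read 12.01, 10.84 and 10.98 against 9.07, 8.82, 8.75 and 8.82, a difference of 2.41 ± 0.49 (adjusted p = 0.00142). Lgr5 read 6.56, 8.09 and 7.45 against 5.57, 5.76, 4.61 and 5.81, a difference of 1.93 ± 0.39 (adjusted p = 0.00147). Its CD31+ mean of 5.44 lay under the filter level of 5.78, and the difference ran from 1.20 to 2.48 over the alternatives.

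Of the Frizzled receptors, Fzd4 read 8.53, 8.74 and 9.20 in GFP+ and 11.06, 11.68, 11.63 and 11.47 in CD31+ arrays, 6.22-fold lower in GFP+ cells (-2.64 ± 0.24, adjusted p = 1.18e-06). Fzd6 read 8.74, 9.10 and 9.67 against 11.29, 11.70, 11.57 and 11.48, 5.07-fold lower (-2.34 ± 0.27, adjusted p = 9.44e-06). With the mean of probe sets the differences were -2.17 for Fzd4 and -1.24 for Fzd6. Both kept the direction they had without treatment, on different arrays. In the GFP+ direction Fzd5 read 12.19, 11.75 and 12.26 against 8.82, 8.45, 8.15 and 8.71 (3.53 ± 0.45, adjusted p = 2.87e-05). Fzd2 read 8.69, 9.61 and 9.80 against 4.75, 6.71, 5.56 and 6.86 (3.40 ± 0.45, adjusted p = 4.39e-05). Fzd1 read 11.67, 11.86 and 11.77 against 9.30, 8.79, 8.67 and 8.75 (2.89 ± 0.24, adjusted p = 4.17e-07), with the least spread of the 3 in the GFP+ sort.

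Among the other surface and secreted genes, Lrp4 read 10.55, 11.19 and 11.41 in GFP+ and 7.71, 6.82, 7.25 and 7.20 in CD31+ arrays (3.81 ± 0.45, adjusted p = 1.27e-05). Dkk3 read 11.25, 12.16 and 12.61 against 8.30, 6.22, 6.95 and 8.19 (4.59 ± 0.55, adjusted p = 1.55e-05). Sfrp4 read 13.07, 13.16 and 12.88 against 9.51, 8.87, 8.72 and 9.37 (3.92 ± 0.40, adjusted p = 3.19e-06). None of these overlapped between sorts. Wif1 read 13.62, 13.61 and 14.04 against 11.11, 7.07, 9.19 and 11.66 (4.00 ± 0.78, adjusted p = 0.00107). Sfrp2 read 8.74, 9.61 and 9.41 against 6.25, 5.61, 6.11 and 4.08 (3.74 ± 0.56, adjusted p = 0.000118). In CD31+ cells both were scattered, Wif1 most. The CD31+ mean of Sfrp2 was 5.51, under the filter level of 5.78, and its lowest intensity there was 0.9. The Sfrp2 difference ran from 2.75 to 4.79 over the alternatives.

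Sfrp1 read 9.26, 9.23 and 9.39 in GFP+ and 7.05, 6.96, 7.36 and 7.74 in CD31+ arrays (2.02 ± 0.27, adjusted p = 4.86e-05). Dkk2 read 6.34, 7.83 and 7.76 against 5.85, 5.03, 5.23 and 5.56 (1.89 ± 0.45, adjusted p = 0.00488), with a CD31+ mean of 5.42, again under the filter level. The remaining 10 called genes were higher in GFP+ cells by 0.67 (Lrp6) to 1.69 (Lgr6). They include the feedback genes Axin2 (1.58 ± 0.34, adjusted p = 0.00233), Nkd2 (1.60 ± 0.52, adjusted p = 0.0289) and Notum (1.43 ± 0.51, adjusted p = 0.0419). Frzb, Fzd7, Fzd10os, Lrp6, Nkd2 and Notum lost their call in some fits with 1 array left out, with adjusted p up to 0.11, 0.0658, 0.079, 0.144, 0.0934 and 0.159. Of 7 such fits, the call held in 6 for Fzd7, 4 for Fzd10os, 3 each for Frzb and Notum, and 2 each for Lrp6 and Nkd2. The highest adjusted p came without GFP+ G-CSF replicate 1 for Frzb, Lrp6 and Nkd2, replicate 2 for Notum and replicate 3 for Fzd7 and Fzd10os. Lef1 (0.43 ± 0.36, adjusted p = 0.416) and Nkd1 (0.60 ± 0.30, adjusted p = 0.149) were not called.

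The effect of G-CSF was then compared within each sort. In the GFP+ osteoblasts 0 of the 42 genes were called, against 0.23% of all genes (31 genes, 25 higher and 6 lower). Without untreated replicate 2, 3.51% of all genes were called (425 higher and 47 lower) and 2 of the 42. At an unadjusted limma p under 0.05 there were 5, against 8.85% of all genes. The groups did not overlap for 7 of the 42 genes, against 9.29% of all genes. Of these, 6 were lower after G-CSF (5.69% of all genes) and 1, Wnt7a, was higher (3.61%). The median change was 0.12 for the 42 genes and -0.04 for all genes.

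The smallest p in osteoblasts belonged to Rspo2. It read 11.04, 9.59 and 10.98 untreated and 8.70, 8.99 and 9.20 after G-CSF. Every G-CSF array was below every untreated array, and the change was -1.57 ± 0.34 (95% interval -2.29 to -0.86, adjusted p = 0.0816, not called). Untreated replicate 2, the array with the highest neutrophil markers, was the lowest of its group. Without it the change was -2.05 and was called (adjusted p = 0.000363), and without untreated replicate 3 its adjusted p was 0.297. Neutrophil markers had a median change of 1.66 in these osteoblast arrays (11 of 11 above 0), erythroid markers -2.38 (5 of 5 below 0) and B lineage markers -1.33 (7 of 7 below 0), with 0 called, and their part in the result was not tested. The dim second probe set of Rspo2 changed by 0.19 ± 0.49 (adjusted p = 0.96). Fzd5 was the other gene called without untreated replicate 2, at -1.11 (adjusted p = 0.045), where all arrays gave -0.32 ± 0.48 (adjusted p = 0.927).

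Lef1 read 6.98, 7.35 and 7.66 untreated and 5.52, 6.27 and 6.68 after G-CSF in osteoblasts. The groups did not overlap, but the change of -1.18 ± 0.39 was not called (adjusted p = 0.315). Sfrp4 read 12.88, 10.61 and 11.84 against 13.07, 13.16 and 12.88 (1.26 ± 0.43, adjusted p = 0.336). Untreated replicate 1 read as high as the lowest G-CSF array, and without untreated replicate 2 the change was 0.67. Fzd1 read 11.71, 10.73 and 10.84 against 11.67, 11.86 and 11.77 (0.68 ± 0.25, adjusted p = 0.401). Wnt9a, a ligand of joint formation, read 8.62, 6.75 and 8.22 against 8.84, 8.31 and 9.52 (1.02 ± 0.41, adjusted p = 0.453). Both overlapped between groups.

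Of the feedback genes, Axin2 was at 8.71 ± 0.24 untreated and 8.67 ± 0.20 after G-CSF in osteoblasts (n = 3 and 3). The change was -0.04 ± 0.36 with a 95% interval from -0.82 to 0.73, so a change of about 1 in either direction lies outside it. Nkd1 gave -0.39 ± 0.32, Nkd2 -0.80 ± 0.56 and Notum -0.17 ± 0.54 (adjusted p = 0.82, 0.757 and 0.966). For Nkd2 all G-CSF arrays (9.50, 9.10 and 8.97) lay below all untreated arrays (10.21, 9.78 and 10). Untreated osteoblast replicate 2 held the lowest level of its group for 25 of the 42 genes.

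In the CD31+ sort both tested R-spondins were lower after G-CSF, and these were the 2 of 42 genes called (4.76%), against 1.6% of all genes and 1.14% called lower. For all genes, 61 were called higher and 154 lower. Rspo2 read 8.80, 8.39, 8.37 and 8.42 untreated and 6.07, 5.84, 6.56 and 6.23 after G-CSF. The groups were apart by more than the range of either, and Rspo2 fell by 2.32 on the log2 scale (SE 0.29, 4.99-fold, adjusted p = 0.0015). It was called whichever array was left out, with changes from -2.45 to -2.21 and adjusted p from 0.00289 to 0.00741. The size depended more on the processing. It was -2.60 with an offset of 1, -1.76 with an offset of 64 and -1.91 with the mean of probe sets. The dim second probe set changed by -1.50 ± 0.43 and was not called (adjusted p = 0.116).

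Rspo3 read 7.10, 6.96, 7.22 and 7.72 untreated and 5.95, 5.77, 5.76 and 5.83 after G-CSF, where the 4 arrays were close together. It fell by 1.42 (SE 0.29, 2.68-fold, adjusted p = 0.0307). This call was less firm than that of Rspo2: it held in 2 of 8 fits with 1 array left out, with adjusted p of 0.0859, 0.097 and 0.106 without untreated CD31+ replicate 1, 3 or 4 and of 0.0797, 0.0689 and 0.0505 without G-CSF replicate 2, 3 or 4. It also missed the threshold with an offset of 64 (-0.94, adjusted p = 0.0921), with quantile normalisation (0.0745) and with arrays centred on their medians (-1.24, adjusted p = 0.05). With the mean of both Rspo3 probe sets, of which the second lay below the filter, the change was -0.51 (adjusted p = 0.557).

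Levels of osteoblast markers also differed between these arrays, with groups that overlapped. The mean of the 9 markers was 12.72, 10.88, 12.24 and 12.35 untreated and 11.80, 8.92, 10.27 and 11.65 after G-CSF. Their median change was -1.59, and 1 of the 9, Alpl, was called lower. The summed intensity of the markers ran from 83000 to 150000 untreated and from 20600 to 93400 after G-CSF. Markers of fibroblasts, tendon and periosteum had a median change of -1.58, with 2 of 8 called lower (Pdgfra and Ogn). Erythroid markers had a median change of -2.49 (5 of 5 below 0, 1 called), B lineage markers -1.90 (6 of 7 below 0, 0 called) and skeletal muscle markers -1.34 (11 of 11 below 0, 0 called). Neutrophil markers changed by a median of 0.73 (10 of 11 above 0, 0 called). Summed intensities of these lists, untreated and after G-CSF, ran from 8530 to 22000 and 1240 to 10100 (erythroid), 3460 to 9320 and 1110 to 2960 (B lineage), 3550 to 94500 and 1400 to 5210 (muscle), and 120000 to 191000 and 171000 to 242000 (neutrophil). The 8 markers of reticular stromal cells and adipocytes had a median change of -0.40 in CD31+ and -0.55 in GFP+ cells, with 1 called in each, Adipoq (-3.43 and -2.31). Of 13 endothelial markers 0 were called.

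The group mean of the 9 osteoblast markers in CD31+ arrays was 12.05 untreated and 10.66 after G-CSF. With the marker mean of each array as a covariate, a fit chosen after the data were seen, Rspo2 changed by -2.00 ± 0.32 (adjusted p = 0.0153) and Rspo3 by -1.15 ± 0.34 (adjusted p = 0.232). The other marker lists were not used in such a fit, and the part of any cell type in the R-spondin changes was not tested.

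**Figure D3:**
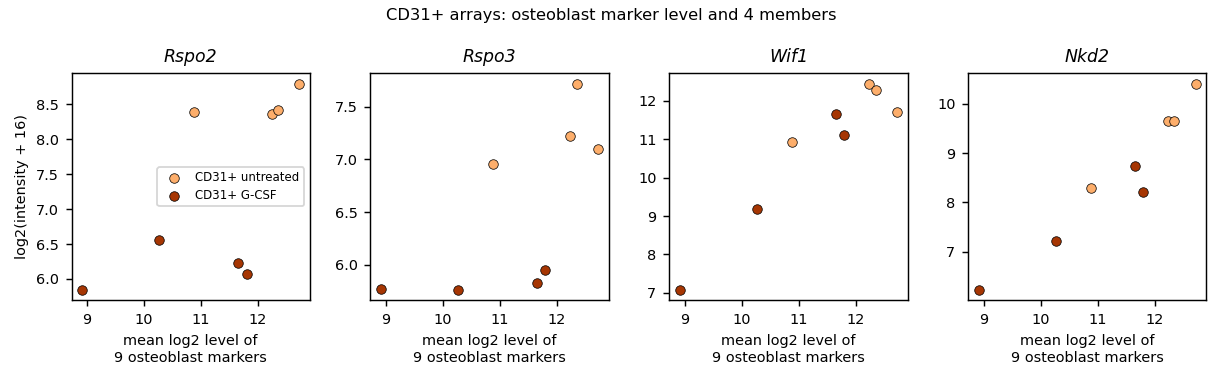
Levels of Rspo2, Rspo3, Wif1 and Nkd2 (log2 of intensity plus 16) against the mean level of 9 osteoblast markers in the 8 CD31+ arrays. Light points are untreated and dark points G-CSF arrays. Rspo2 and Rspo3 of the G-CSF arrays lie below those of all untreated arrays. Rspo2, Wif1 and Nkd2 are lowest (5.84, 7.07 and 6.22) in the G-CSF array with the lowest markers (8.92).

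Changes of the other genes in the CD31+ sort were mostly negative. Of the 42 genes 37 (88.1%) had a change below 0, against 57.4% of all genes, and the median was -0.56 against -0.05. At an unadjusted p under 0.05 there were 17, all below 0, against 13.1% of all genes. Groups did not overlap for 5 genes (Rspo2, Rspo3, Fzd5, Lgr4 and Lef1), against 10.3% of all genes. All 5 were lower after G-CSF, where 5.62% of all genes were lower without overlap and 4.65% higher. Centring arrays on their medians moved the median of all genes to 0.13 and of the 42 genes to -0.38, and the calls over all genes were then 81 higher and 54 lower. G-CSF replicate 2 held the lowest level of its group for 16 of the 42 genes and replicate 3 for 15.

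The calls above came from a fit that ignores any pairing of arrays. Replicate numbers were taken to pair untreated and G-CSF arrays within a sort, from correlations in these same arrays. For CD31+ replicate 4 the correlation was 0.102 with its own number and up to 0.178 with another. A fit with the number as a block called 10 of the 42 genes lower in CD31+ cells and 0 higher. Over all genes it called 4.91% (139 higher and 521 lower). The adjusted p with this block was 0.00248 for Rspo2, 0.0166 for Rspo3, 0.00286 for Nkd2, 0.0142 for Dkk3, 0.0202 for Wnt4, 0.0204 for both Fzd5 and Lgr4, 0.0216 for Frzb, 0.0401 for Wif1 and 0.048 for Dkk1. In osteoblasts the block left 0 genes called. Without a block, 5 genes were called in CD31+ cells when untreated replicate 2 was left out: both R-spondins, Nkd2 (adjusted p = 0.0175), Frzb (0.0149) and Lrp4 (0.0358). In that fit 2.92% of all genes were called (68 higher and 325 lower).

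Nkd2 read 10.41, 8.29, 9.66 and 9.66 untreated and 8.22, 6.22, 7.22 and 8.73 after G-CSF in CD31+ arrays. Within every pair of equal number it was lower after G-CSF, but the groups overlapped. The change was -1.91 ± 0.48 (adjusted p = 0.0616 without the block), and -0.86 ± 0.30 with the osteoblast marker mean as a covariate (adjusted p = 0.346). Fzd5 read 10.20, 9.46, 10.16 and 10.26 against 8.82, 8.45, 8.15 and 8.71 (-1.49 ± 0.42, adjusted p = 0.0901, and -0.84 with the covariate). Frzb, a relative of the Sfrp proteins first known from cartilage, read 7.95, 6.64, 8.33 and 7.90 against 6.94, 6.00, 6.32 and 6.72 (-1.21 ± 0.35, adjusted p = 0.0947, and -0.59 with the covariate). The lowest G-CSF levels of all 3 were in replicates 2 and 3, the arrays with the lowest osteoblast markers.

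Wnt4 read 10.14, 8.48, 10.08 and 9.30 untreated and 8.63, 4.49, 6.62 and 8.81 after G-CSF (-2.36 ± 0.71, adjusted p = 0.113). Wif1 read 11.70, 10.92, 12.45 and 12.27 against 11.11, 7.07, 9.19 and 11.66 (-2.08 ± 0.72, adjusted p = 0.177). In both, the same G-CSF replicates 2 and 3 were far below replicates 1 and 4. Dkk3 (-1.06 ± 0.51, adjusted p = 0.396) had the same order of arrays at the low end, with 6.22 in replicate 2 and 6.95 in replicate 3. Lgr4 read 10.88, 9.70, 10.25 and 10.18 against 9.07, 8.82, 8.75 and 8.82 (-1.38 ± 0.45, adjusted p = 0.145), with little spread after G-CSF. Dkk1, the antagonist of Lrp5 and Lrp6, changed by -1.33 ± 0.51 (adjusted p = 0.244).

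Lef1 in the CD31+ sort read 6.47, 7.54, 7.10 and 6.24 untreated and 5.30, 5.96, 5.71 and 5.94 after G-CSF (-1.11 ± 0.34, adjusted p = 0.118). All G-CSF arrays were below all untreated arrays, as they were in osteoblasts on other arrays, and neither change was called. With the replicate number as a block within sorts, Lef1 in CD31+ cells was not called (adjusted p = 0.0524). With the block across both sorts its adjusted p was 0.0499. The CD31+ mean of Lef1 after G-CSF, 5.73, lay under the filter level of 5.78. Axin2 changed by -0.57 ± 0.31 (adjusted p = 0.501), Nkd1 by -0.56 ± 0.28 (adjusted p = 0.432) and Notum by -1.15 ± 0.47 (adjusted p = 0.284). Fzd4, higher in the CD31+ sort than in GFP+ cells, was at 11.37 ± 0.25 untreated and 11.46 ± 0.28 after G-CSF (n = 4 and 4), with a 95% interval of the change from -0.38 to 0.57. Fzd6 was at 11.38 ± 0.50 and 11.51 ± 0.17, with an interval from -0.40 to 0.65.

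**Figure D4:**
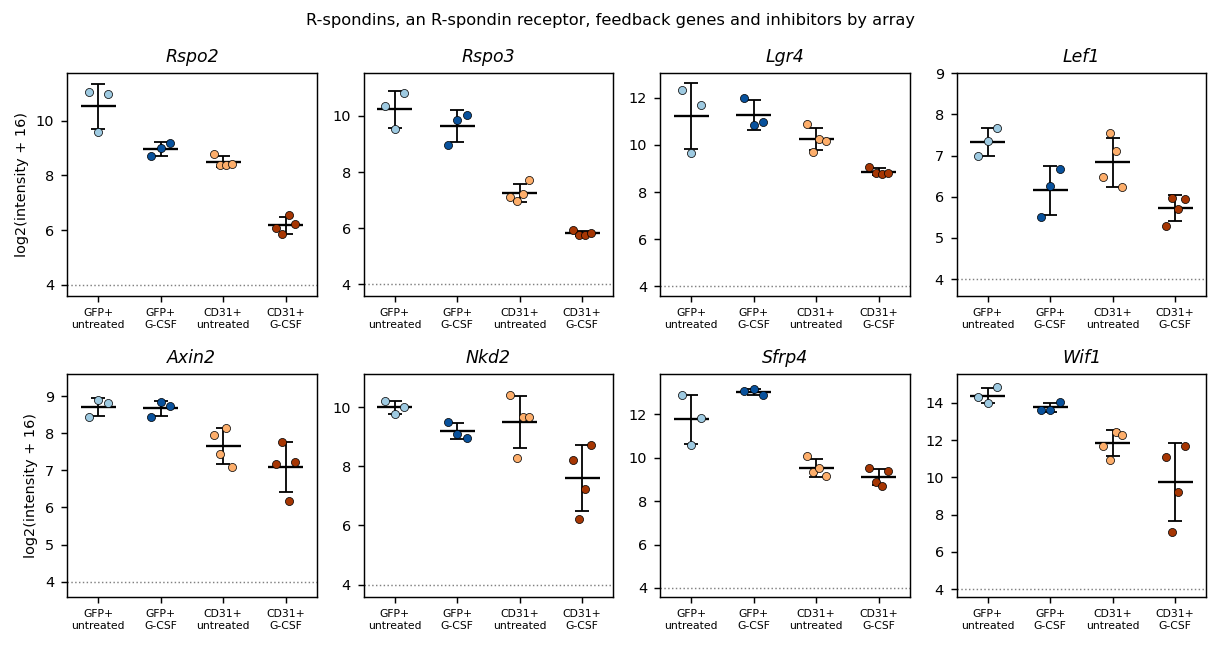
Levels of 8 genes, as log2 of intensity plus 16, in each array of the 4 groups: the R-spondins Rspo2 and Rspo3, the receptor Lgr4, Lef1, the feedback genes Axin2 and Nkd2, and the inhibitors Sfrp4 and Wif1. Points are arrays, bars are the group mean ± SD, and the dotted line at 4 is the lowest level possible. Rspo2 is lower after G-CSF in both sorts, with the call made in the CD31+ sort, and Axin2 of the osteoblasts lies between 8.43 and 8.89 in all 6 arrays.

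**Figure D5:**
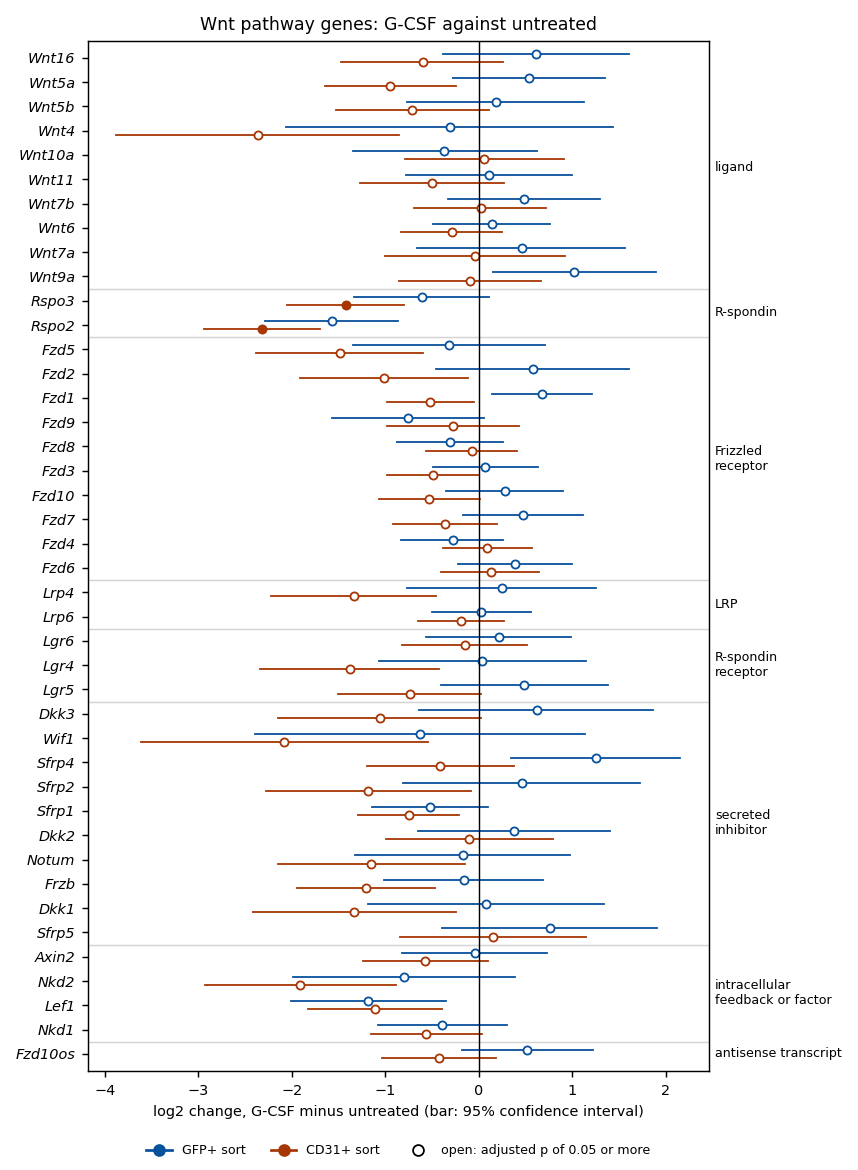
Change with G-CSF for the 42 tested genes, grouped by role, on the log2 scale, in GFP+ osteoblasts (blue) and CD31+ cells (red). Points are differences of group means, bars are 95% confidence intervals, and filled points are called in the fit without a replicate block. Only Rspo2 and Rspo3 in CD31+ cells are filled, and 37 of 42 CD31+ points lie left of 0 against 16 of 42 GFP+ points.

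Whether the changes differed between the sorts was tested directly. Of the 42 genes 0 were called in this limma test and 0 (0%) of all 13453 genes, whose lowest adjusted p was 0.203. At an unadjusted p under 0.05 there were 8 of the 42 and 4.62% of all genes. The smallest p was that of Fzd1, with changes of 0.68 in osteoblasts and -0.52 in CD31+ cells and a difference of 1.19 ± 0.33 (adjusted p = 0.624). Sfrp4 differed by 1.67 ± 0.56, Wnt5a by 1.49 ± 0.50, Lrp4 by 1.59 ± 0.63 and Fzd2 by 1.59 ± 0.64 (adjusted p from 0.87 to 0.95). Rspo2, called in CD31+ cells alone, differed by 0.75 ± 0.44 between the sorts, with a 95% interval from -0.20 to 1.70 (adjusted p = 1). For Rspo3 the difference was 0.81 ± 0.45 (adjusted p = 1).

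Other genes of the pathway were counted in 5 lists, to be read against the 13.6% higher and 12.8% lower of all genes without treatment and the 17.5% and 14.4% after G-CSF. Of 26 tested genes of the signal relay, 1 was called higher and 2 lower in untreated GFP+ cells, and 1 and 6 after G-CSF. The corepressor Tle2 was higher (1.99 ± 0.27 untreated and 1.71 ± 0.27 after G-CSF), and Ctnnbip1, which blocks beta-catenin from TCF factors, was lower (-1.71 ± 0.27 and -2.42 ± 0.27). Median differences of this list were 0.12 and -0.05, close to those of all genes.

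Another list, named for Wnt secretion and surface control, had 19 tested genes. In untreated GFP+ cells 10 were higher and 1 lower, and after G-CSF 13 and 2, with medians of 0.90 and 1.97. Bicc1 was higher by 2.94 ± 0.43 and 4.32 ± 0.43. It is an RNA-binding protein, so the list is wider than its name. The endothelial membrane protein Tmem88, which binds Dishevelled, was lower by -3.46 ± 0.38 untreated and -3.32 ± 0.38 after G-CSF. Tnfrsf19, a receptor of the TNF family and Wnt target, was higher by 4.07 ± 0.50 after G-CSF. Porcn and Wls, which Wnts need for lipid addition and for secretion, were both called higher in both comparisons (1.65 and 1.70 untreated, 2.04 and 2.19 after G-CSF), and were singled out after their values were seen.

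Among 16 genes of the noncanonical and planar polarity branch, 3 were higher and 2 lower in untreated GFP+ cells, and 2 and 4 after G-CSF, with medians of -0.27 and -0.23. Ror2, the receptor of Wnt5a, was higher by 2.25 ± 0.42 (adjusted p = 0.000962) and 3.89 ± 0.42 (adjusted p = 5.33e-06). Daam2, a formin, was higher by 1.52 ± 0.28 untreated, and Prickle1, a planar polarity protein, lower by -2.05 ± 0.29 after G-CSF. Of 3 tested genes of the norrin and Wnt7 receptor complexes, Tspan12, the co-receptor that works with Fzd4, was lower in GFP+ cells by -2.51 ± 0.29 untreated and -2.50 ± 0.29 after G-CSF, as Fzd4 was. Reck, which presents Wnt7, was higher by 1.86 ± 0.29 and 1.82 ± 0.29.

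The last list held genes known as Wnt targets in 1 tissue or another. Of 22 tested, 10 were higher and 4 lower in untreated GFP+ cells, and 12 and 4 after G-CSF, with medians of 0.62 and 1.15. Ccn5, a matricellular protein, was higher by 2.68 ± 0.30 untreated, and Ccn4, its relative in bone, by 3.43 ± 0.65 after G-CSF. Sox17, a factor of endothelial identity, was lower by -3.83 ± 0.28 and -3.74 ± 0.28. The lists hold genes with uses outside the pathway.

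With G-CSF, 0 genes of these 5 lists were called in osteoblasts. In the CD31+ sort 3 were called lower. Tnfrsf19 read 11.09, 10.23, 11.28 and 10.81 untreated and 9.02, 6.77, 8.27 and 9.53 after G-CSF (-2.45 ± 0.46, adjusted p = 0.0196). Dact3, an intracellular Wnt antagonist, read 8.84, 8.54, 8.79 and 8.58 against 7.82, 7.47, 7.92 and 7.49 (-1.01 ± 0.21, adjusted p = 0.034). Bambi, a decoy receptor of the TGF-beta family and a Wnt target, read 13.17, 12.06, 12.89 and 12.70 against 11.44, 10.78, 11.24 and 11.45 (-1.48 ± 0.32, adjusted p = 0.0361). In all 3 the groups were apart, and Tnfrsf19 was lowest in replicate 2, the array with the lowest osteoblast markers.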

How the data were processed

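RNA of 14 sorted samples was measured on Affymetrix mouse arrays, from 100 ng of total RNA each per the labels. Each deposited value is the intensity of a probe set, not a log, and came from Affymetrix Expression Console 1.1 per the submitters' processing notes. The algorithm that summarised the probes is not given in the sources used here. Of 45101 probe sets, 34945 had 1 gene symbol in the platform table. Values were used as deposited, as log2 of intensity plus 16, and the dimmest fraction of 0.333 of probe sets was dropped. A model of 4 group means was fitted to all arrays with limma 3.58.1 (R 4.3.3, lmFit and eBayes with a trend in intensity), adjusted by Benjamini and Hochberg over 13453 genes, and the code was tested on simulated data. The number of arrays limits the precision.

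Deviations from group means of arrays with equal numbers, untreated and G-CSF, correlated by 0.223 to 0.315 in osteoblasts and 0.102 to 0.377 in CD31+ cells, all above 0.1, although CD31+ replicate 4 had 0.102 with its own number and up to 0.178 with another. By that rule the numbers in the titles were taken to pair arrays within a sort. Alternatives varied the offset, scaling, filter, probe set rule, arrays, block and prior. The gene list, its roles and the further lists were chosen with earlier results of these data known. Named were all called genes, the 20 largest between sorts singly, the 5 of smallest p where none was called, the feedback genes, and 2 genes per further list and comparison.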

Additional observations from a re-analysis of the deposited data

Results flagged for a closer look

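In groups of 4 arrays, a level was singled out when its gap to the nearest other array, as a share of the range of the group, exceeded the 95% critical value of Dixon's test. Of 84 groups checked (42 genes in the untreated and in the G-CSF CD31+ arrays) 4 met this, where chance gives about 1 in 20. Among untreated CD31+ arrays, Fzd5 was low in replicate 2 (9.46, the others 10.16 to 10.26), and so was Wnt11 (6.67, the others 7.41 to 7.52). Rspo2 was high in untreated replicate 1 (8.80, the others 8.37 to 8.42), the array with the most skeletal muscle transcripts. Without that array Rspo2 changed with G-CSF by -2.22 (adjusted p = 0.00562). Wnt5a was high in G-CSF CD31+ replicate 1 (6.29, the others 5.33 to 5.46). The part of other cells in these levels was not tested.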

How the results depend on the processing

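With 1 array left out, 14 to 19 genes were called between the untreated sorts (19 with all arrays), 25 to 29 between the G-CSF sorts (30), 0 to 2 with G-CSF in osteoblasts (0), 1 to 5 in CD31+ cells (2) and 0 to 0 for the difference between the changes (0). The share of all genes called in these fits ran from 19.3% to 33.7% between the untreated sorts (26.4% with all arrays) and from 25.9% to 29.7% after G-CSF (31.9%). With G-CSF it ran from 0.0297% to 3.51% in osteoblasts (0.23%) and from 0.223% to 2.92% in CD31+ cells (1.6%). Where 2 arrays of a group are then left, the spread is pooled over all groups. The count in CD31+ cells was 1, Rspo2, with an offset of 64, quantile normalisation, median centring, the mean of probe sets, and the osteoblast marker mean as a covariate, which was chosen after the data were seen. It was 4 with the 8 CD31+ arrays alone (Fzd5 at 0.00743 and Lgr4 at 0.0126 joined the R-spondins) and 10 with the replicate block, within sorts or across them. These were not the same 10: across sorts Lef1 (0.0499) and Lrp4 (0.0475) were called and Dkk3 and Wif1 were not. The share of all genes called in CD31+ cells moved as well, from 1.6% with the main settings. It was 0.297% to 1.4% in the settings that called Rspo2 alone and 3.43% with the 8 arrays alone. With the block it was 4.91% within sorts and 3.76% across them. The block changed no call in osteoblasts or for the difference between the changes. In osteoblasts 1 gene, Rspo2, was called (-2.05, adjusted p = 0.000558) when the 2 arrays rich in neutrophil or muscle transcripts were left out. In that fit 3.17% of all genes were called, against 0.23% with all arrays. No called gene changed direction under any alternative tried. With 3 and 4 arrays per group, changes in the osteoblasts have standard errors up to 0.83, and levels close to 4 have no order.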
